A study of Mus musculus with 4 samples.

Results

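SOX3 binding was examined at 9 genes of the Sonic hedgehog pathway, which are Shh, Ptch1, Boc, Hhip, Smo, Sufu, Gli1, Gli2 and Gli3. They were chosen by their function in the pathway, out of 22367 protein-coding genes on chromosomes 1 to 19, X and Y. For each gene, every SOX3 peak was taken that overlapped the gene body or the 100 kb to either side of it, a stretch called the window of the gene. The study mapped SOX3, a transcription factor of the SOXB1 group that is present in neural progenitor (NP) cells, by chromatin immunoprecipitation and sequencing (ChIP-seq). The NP cells were made from R1, a mouse embryonic stem cell line, by 4 days of monolayer culture in N2B27, a serum-free medium with N2 and B27 supplements. SOX3 was precipitated with a goat polyclonal antibody against human SOX3 in 3 samples, which the labels call biological replicates 1, 2 and 3. All came from this 1 cell line without a treatment or a genotype to compare, the input sample carried no antibody, and its reads were not analysed here. No group could therefore be tested against another, and the values are counts, positions and ranks.

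Hedgehog signalling patterns the ventral neural tube. Shh, the secreted ligand, comes from the notochord and floor plate and binds Ptch1, a membrane receptor that silences the transducer Smo while no ligand is bound. Boc is a co-receptor that helps to present the ligand, and Hhip is a membrane protein that captures it. Once Smo is active, Sufu, which holds the Gli factors in check in the cytoplasm, releases them. Gli2 is the main activator and Gli3 the main source of repressor, and Gli1 is an activator that is itself a target of the pathway, as are Ptch1 and Hhip. In the developing nervous system the pathway sets ventral progenitor identity and promotes proliferation.

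Each of the 3 peak lists gives a position on mm9 and a score, which is 10 times the negative log10 of the p-value of the peak caller MACS against the input. The lists held 18816, 8096 and 40543 peaks for replicates 1, 2 and 3, and the lowest score was 50 in each, the threshold of 1e-05. Read depth raises scores and is unknown here, so regions are compared by the percentile of a score, the share of the peaks of its own list that score no higher. For a few regions the rank is given too, where 1 is the highest. Overlapping peaks of any replicates were merged into a region, and a region of all 3 replicates is one that holds a peak of each. The replicates were not equally alike. Replicates 2 and 3 had the same first base in 29.2% of their 24 overlapping pairs in the windows (34.5% of 7815 pairs in the genome), against 0 of 17 pairs for replicates 1 and 2 and 3.57% of 28 pairs for replicates 1 and 3. Whether replicates 2 and 3 share reads or processing was not tested, so a region of all 3 replicates and an SD over n = 3 may rest on fewer than 3 separate measurements. Counts without each replicate are therefore given below. Of the markers of NP cells, Nes, Sox2 and Pax6 had 6, 4 and 3 regions of all 3 replicates in their windows and Sox3 itself had 0, which describes binding and not expression. The 0 holds for this window only, since the study lists an intergenic SOX3 peak for Sox3.

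The sequences below, from the mm9 reference on the plus strand, lie under peaks in the windows of these genes. They do not show which bases SOX3 bound. For each gene with a region of all 3 replicates they give the region with the highest mean percentile, and in addition any region with its middle within 2 kb of the gene start. A further Gli2 region is shown because it holds the SOX/POU word, named for a composite of a loose SOX side and an octamer, and was added after the values were seen. Each is the stretch shared by the replicates, or the 300 bases around its middle where that is longer. Capitals mark, on either strand, the SOX word AACAAA or AACAAT, its variant GACAAA or GACAAT, the looser SOX core word (ACAA, then A or T, then A or G), the octamer of POU factors (ATGCAAAT, or T in place of A as the fifth letter), and the SOX/POU word. Overlapping words run together.
Ptch1 intron 15, chr13:63631799-63632057: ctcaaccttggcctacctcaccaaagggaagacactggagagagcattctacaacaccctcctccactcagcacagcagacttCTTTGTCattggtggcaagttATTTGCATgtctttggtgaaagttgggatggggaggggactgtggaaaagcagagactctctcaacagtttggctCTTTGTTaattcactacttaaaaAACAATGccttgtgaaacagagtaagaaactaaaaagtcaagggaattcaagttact
Boc intron 1, chr16:44531048-44531347: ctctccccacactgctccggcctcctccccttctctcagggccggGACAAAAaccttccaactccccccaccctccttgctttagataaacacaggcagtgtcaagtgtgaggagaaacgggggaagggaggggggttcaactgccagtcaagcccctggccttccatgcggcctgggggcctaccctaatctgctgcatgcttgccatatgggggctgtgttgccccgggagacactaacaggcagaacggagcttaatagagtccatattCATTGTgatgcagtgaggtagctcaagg
Smo start, chr6:29685405-29685606: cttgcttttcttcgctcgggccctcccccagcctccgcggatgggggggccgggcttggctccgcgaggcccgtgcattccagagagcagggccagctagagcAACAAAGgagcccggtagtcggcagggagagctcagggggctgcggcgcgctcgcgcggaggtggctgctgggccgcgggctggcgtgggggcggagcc
Smo intron 1, chr6:29698110-29698409: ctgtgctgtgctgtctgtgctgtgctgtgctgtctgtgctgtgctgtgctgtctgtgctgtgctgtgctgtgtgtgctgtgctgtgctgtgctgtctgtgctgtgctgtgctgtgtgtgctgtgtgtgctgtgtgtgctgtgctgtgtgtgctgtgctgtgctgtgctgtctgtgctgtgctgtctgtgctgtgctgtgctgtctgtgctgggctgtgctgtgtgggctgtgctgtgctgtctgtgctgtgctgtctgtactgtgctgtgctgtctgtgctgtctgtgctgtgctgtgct
Sufu upstream, chr19:46469612-46469809: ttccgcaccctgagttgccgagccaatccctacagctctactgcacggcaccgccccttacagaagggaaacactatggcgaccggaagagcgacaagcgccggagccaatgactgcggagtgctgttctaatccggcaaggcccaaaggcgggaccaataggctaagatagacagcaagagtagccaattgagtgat
Sufu intron 3, chr19:46518010-46518309: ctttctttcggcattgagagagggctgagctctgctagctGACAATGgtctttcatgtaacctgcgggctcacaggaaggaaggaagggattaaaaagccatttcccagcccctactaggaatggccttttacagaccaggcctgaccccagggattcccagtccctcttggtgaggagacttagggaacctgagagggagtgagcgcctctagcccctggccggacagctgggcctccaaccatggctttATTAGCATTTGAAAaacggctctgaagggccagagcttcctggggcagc
Gli1 downstream, chr10:126700759-126700986: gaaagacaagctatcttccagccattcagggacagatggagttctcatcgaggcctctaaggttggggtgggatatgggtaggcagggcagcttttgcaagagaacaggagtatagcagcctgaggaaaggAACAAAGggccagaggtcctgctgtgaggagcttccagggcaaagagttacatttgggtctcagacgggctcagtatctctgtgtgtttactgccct
Gli2 intron 2, chr1:120807709-120808008: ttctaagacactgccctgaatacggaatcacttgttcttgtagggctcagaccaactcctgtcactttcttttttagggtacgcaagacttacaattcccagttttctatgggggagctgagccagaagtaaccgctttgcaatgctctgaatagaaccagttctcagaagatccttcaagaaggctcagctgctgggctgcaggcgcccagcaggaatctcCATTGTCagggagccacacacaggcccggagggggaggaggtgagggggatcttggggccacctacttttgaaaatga
Gli2 intron 1, chr1:120945622-120945921: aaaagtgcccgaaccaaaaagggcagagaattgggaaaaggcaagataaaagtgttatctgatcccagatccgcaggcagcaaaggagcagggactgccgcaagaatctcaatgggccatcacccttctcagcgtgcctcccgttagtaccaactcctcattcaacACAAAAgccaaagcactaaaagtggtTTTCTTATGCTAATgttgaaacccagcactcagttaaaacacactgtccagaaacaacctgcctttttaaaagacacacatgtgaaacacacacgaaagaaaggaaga
Gli3 intron 2, chr13:15577840-15578139: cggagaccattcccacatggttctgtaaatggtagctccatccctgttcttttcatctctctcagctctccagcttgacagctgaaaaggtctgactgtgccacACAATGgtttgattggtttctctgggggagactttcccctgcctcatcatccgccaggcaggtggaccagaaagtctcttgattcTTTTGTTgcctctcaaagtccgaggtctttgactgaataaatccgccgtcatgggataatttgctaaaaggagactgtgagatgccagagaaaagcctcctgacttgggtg
The Ptch1, Smo start, Gli1 and Gli3 sequences hold AACAAA or AACAAT, and in the sequences with the SOX/POU word, from Sufu intron 3 and Gli2 intron 1, it overlaps an octamer, and its SOX side holds none of the SOX or SOX core words. The Smo intron 1 sequence is a run of short CTGTG units with no word in capitals. The Sufu upstream sequence has none either, although the whole region holds 1 GACAAA or GACAAT.

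Of the 9 genes, 7 had at least 1 region of all 3 replicates in the window, and Shh and Hhip had none. Of all protein-coding genes, 42.2% had at least 1 such region. The windows of the 9 genes ran from 210287 bp at Shh to 466792 bp at Gli3, against a median of 215402 bp over all genes. Longer windows offer more room for a region, and this share was not matched for window length. All 9 genes had a region of at least 2 replicates, as did 63.1% of all genes, and all 9 had a peak of some replicate, as did 97.2%. Within the gene body itself, 6 of the 9 (Ptch1, Boc, Smo, Sufu, Gli2 and Gli3) had a region of all 3 replicates, against 8.83% of all genes. Long genes offer more room for a peak. Among genes of 50 kb or longer, a length set after the values were seen, 22.6% had such a region in the body, and of the 6 pathway genes of that length 5 did, with Hhip as the exception. Only Smo and Sufu had a region of all 3 replicates with its middle within 2000 bp of an annotated start, which was the case for 4.79% of all genes.

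Together the windows held 119 regions, of which 17 belonged to all 3 replicates (14.3%, with a 95% Wilson interval from 9.11 to 21.7%, counting error only). In the genome 10.5% of the 51271 merged regions did. A further 17 held peaks of 2 replicates, and 85 held a peak of 1 replicate. Of these 85, 61 came from replicate 3 (71.8%, against 73.6% in the genome), 24 from replicate 1 and 0 from replicate 2. Of the 17 regions of all 3 replicates, 10 lay in introns of the pathway gene, 3 upstream and 4 downstream, and 12 had the pathway gene as the nearest protein-coding gene start. Their median width was 423 bp and their median GC content 51.0%, against 401 bp and 48.9% for all 5358 regions of this kind. Repeats were measured by the share of 50-base sequences found at several places in the genome (multi-copy). This share exceeded 50% in 0 of the 17, against 14.7% of the regions of all 3 replicates in the genome.

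**Figure D1:**
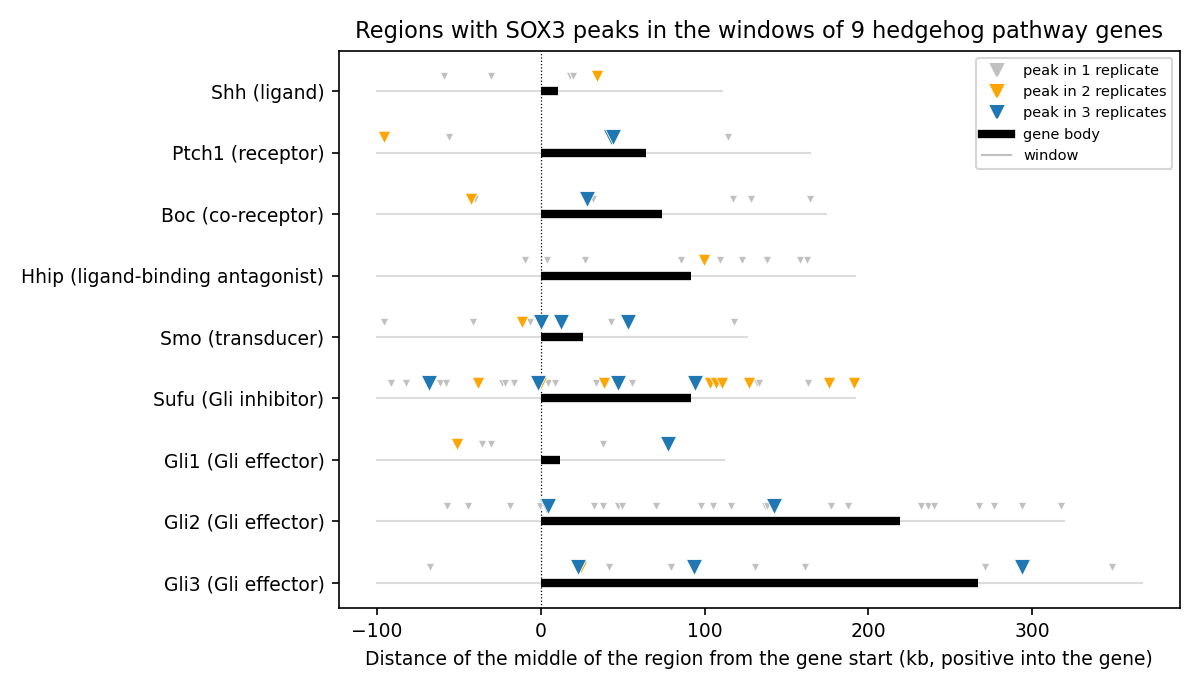
Regions with SOX3 peaks in the windows of the 9 genes, by the distance of their middle from the gene start in kb, with positive values in the direction of transcription. Triangles show regions with a peak in 1 replicate (grey), 2 replicates (orange) or 3 replicates (blue), black bars the gene bodies and grey lines the windows. The blue regions lie only inside the bodies of Ptch1, Boc and Gli2, both inside and outside those of Smo, Sufu and Gli3, only outside that of Gli1, and at neither Shh nor Hhip.

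The roles in the pathway differed in these counts. Regions of all 3 replicates numbered 0 at the ligand and 0 at the antagonist Hhip, 3 at the receptor and co-receptor together, 3 at the transducer Smo, 4 at Sufu and 7 at the 3 Gli genes. Windows differ in length, from 210287 bp at Shh to 466792 bp at Gli3. Per 100 kb of window there were 0.558 regions at the receptor and co-receptor, 1.33 at Smo, 1.37 at Sufu and 0.638 at the Gli genes, and 0.640 over all 9. The windows of all protein-coding genes, merged, held 0.245 per 100 kb. Each role rests on 1 to 3 genes, so the order of the roles was not tested. Some of these regions lay nearer to the start of another gene. Counting only those nearest to a start of the pathway gene left 2 at Ptch1, 1 at Boc, 2 at Smo and 2 at Sufu. At the Gli genes it left 0 at Gli1, 3 at Gli2 and 2 at Gli3. With every list cut to its 8096 best peaks, the length of the shortest, Smo had 1 region and Sufu had 2, while the receptor and co-receptor still had 3 and the Gli genes 7. Leaving out replicate 2 and asking for a peak of replicates 1 and 3 raised the total from 17 to 27 regions, with Sufu going from 4 to 12, Smo from 3 to 4 and Hhip from 0 to 1. Leaving out replicate 1 gave 24 regions, with Shh going from 0 to 1, Ptch1 from 2 to 3, Boc and Gli1 each from 1 to 2, Sufu from 4 to 6 and Gli3 from 3 to 4. Leaving out replicate 3 gave 17, with the count of each gene as before.

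**Figure D2:**
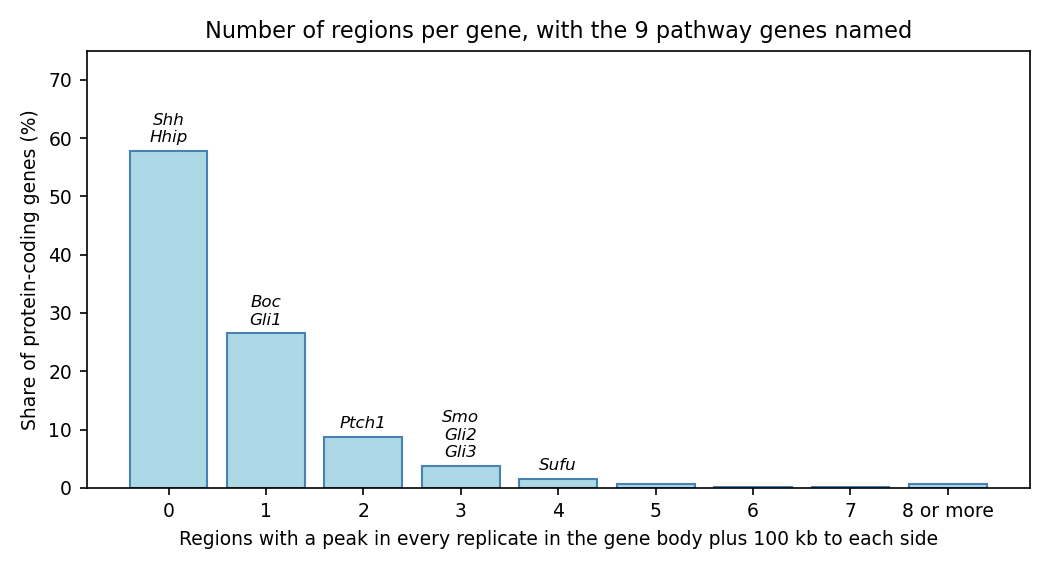
Share of protein-coding genes (%) by the number of regions with a peak in all 3 replicates in the gene body plus 100 kb to each side, with the 9 pathway genes written above the bar of their count. Shh and Hhip share the count of 0 with 57.8% of genes, while 6.94% of genes have 3 or more regions, as Smo, Gli2, Gli3 and Sufu do. Windows differ in length between genes, and the counts are not scaled by it.

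Shh, the ligand (chr5:28783355-28793641, minus strand), had 6 regions in its window, and 0 of them belonged to all 3 replicates. Replicate 1 had 0 peaks there, replicate 2 had 1 and replicate 3 had 6. The region of 2 replicates, chr5:28759564-28759767, lay 33975.5 bp downstream of the start, beyond the gene body, with scores of 56.52 in replicate 2 (percentile 18.9) and 76.79 in replicate 3 (percentile 67.7). It was a multi-copy sequence for 99.4% of its 50-base stretches. The other 5 regions were peaks of replicate 3 with scores between 51.38 and 66.75, at percentiles between 9.59 and 55.7. Those with the score of 66.75 were 100% multi-copy and that with 51.38 was 65.8% multi-copy, while the rest held no multi-copy sequence. Of the 7 peaks at the ligand, 6 thus came from the longest list.

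Ptch1, the receptor (chr13:63610261-63674474, minus strand), had 2 regions of all 3 replicates, a number that 15.7% of genes reached or passed. Both lay in intron 15, 1268 bp apart. The first, chr13:63631750-63632101, was 42548.5 bp from the gene start and 16300.5 bp from the nearest annotated Ptch1 start. Its scores were 147.14, 101.71 and 153.77 in replicates 1, 2 and 3, at percentiles of 77.1, 62.0 and 90.5. The second, chr13:63630105-63630481, had scores of 171.98, 59.95 and 106.56 at percentiles of 81.6, 26.2 and 83.2, so that replicate 2 ranked it far lower than the others did. In the whole of these regions there were 5 AACAAA or AACAAT words in the second and 2 in the first. In the genome, 5.13% of neighbouring regions of all 3 replicates lay within 2000 bp of each other, and their median gap was 218948 bp. The region of 2 replicates of Ptch1 lay 95959.5 bp upstream at scores of 55.87 and 57.73 in replicates 2 and 3 (percentiles 17.6 and 35.5), and 3 peaks of 1 replicate scored between 58.12 and 81.37.

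Boc, the co-receptor (chr16:44485158-44559010, minus strand), had 1 region of all 3 replicates, and 42.2% of genes had 1 or more. At chr16:44530884-44531411, in intron 1 and 27862.5 bp from the start, it scored 190.34, 155.53 and 276.59, at percentiles of 83.8, 79.3 and 95.9, with a mean of 86.4 ± 8.56 (SD, n = 3). The printed stretch holds GACAAA and, at its other end, a SOX core word on the opposite strand. A region of replicates 2 and 3 lay 42436 bp upstream, with a score of 50.09 in replicate 2 (percentile 0.494), just above the threshold, and of 99.42 in replicate 3 (percentile 80.9). The 5 peaks of 1 replicate scored between 55.75 and 79.38.

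Hhip, the ligand-binding antagonist (chr8:82490014-82581905, minus strand), had 0 regions of all 3 replicates among 11 regions, and replicate 2 had no peak in its window. Replicate 1 had 5 peaks and replicate 3 had 7. The region of replicates 1 and 3, chr8:82482142-82482310, lay 99679 bp downstream of the start, beyond the gene body, with scores of 94.84 and 63.28 at percentiles of 60.5 and 49.3, and 98.3% of it was multi-copy. The highest score at Hhip, 254.42 at chr8:82443344-82444193, came from replicate 1 alone, where it ranked 2004 (percentile 89.4). That peak was 850 bp wide and 82.0% multi-copy, and the neighbouring peak of replicate 1, with a score of 114.87, was 73.3% multi-copy. That neighbour stood at percentile 68.6 of its list. By percentile 2 peaks of replicate 3 alone stood higher than that, both without multi-copy sequence. The first, chr8:82472692-82472889, lay downstream of the gene at a score of 99.64 (percentile 81.0), and the second, chr8:82496086-82496252, in exon 13 at a score of 81.63 (percentile 71.6). The part of the repeats in the replicate 1 peaks was not tested.

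Smo, the transducer (chr6:29685694-29711365, plus strand), had 3 regions of all 3 replicates, and 6.94% of genes had as many or more. Among the 17 regions, that at chr6:29685404-29685632 lay closest to its gene start, 176 bp upstream. It scored 96.71, 78.73 and 66.44 in replicates 1, 2 and 3, at percentiles of 61.3, 47.4 and 55.2, which places it near the middle of each list. Its GC content was 75.1%, and the printed stretch holds a single AACAAAG.

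The Smo region with the highest mean percentile, chr6:29697821-29698677 in intron 1, was the widest of the 17 at 857 bp. Replicate 1 gave it a score of 427.22 (rank 868, percentile 95.4), replicate 3 a score of 179.84 (percentile 92.3) and replicate 2 a score of 74.24 (percentile 43.4), below that of the region at the Smo start. It is the region whose printed sequence repeats short CTGTG units. In the 200 bases around its middle, 70.8% of bases equalled the base 5 positions on, and only 0.560% of the regions of all 3 replicates in the genome reached that share for any period from 2 to 10 bases, with a median of 32.0%. Of its 50-base sequences 45.9% were multi-copy, and it was the single region of the 17 with any. It held none of the words searched for, and the part of the repeat in its scores was not tested. The remaining Smo region, chr6:29738877-29739125, lay 53307 bp downstream of the start inside Ahcyl2, at scores of 76.79, 63.96 and 92.91 and percentiles of 49.6, 32.1 and 78.3. A region of replicates 1 and 3 lay 11733.5 bp upstream of Smo at scores of 85.41 and 90.74 and percentiles of 55.5 and 77.1.

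Sufu, the inhibitor of the Gli factors (chr19:46471386-46563294, plus strand), had the most peaks of the 9 genes, with 35 regions. Of these, 4 belonged to all 3 replicates, 10 to 2 replicates and 21 to 1 replicate, and 3.17% of genes had 4 or more regions of all 3 replicates. The window held 10 protein-coding genes with Sufu included, and 2 of the 4 regions lay nearer to another gene. The region with the highest mean percentile was in intron 3, chr19:46517905-46518519, 46826 bp from the gene start. It scored 141.71, 173.67 and 400.43, at percentiles of 76.0, 82.3 and 97.5, and ranked 1006 in replicate 3. It holds 1 SOX/POU word, which was found in 6.98% of the regions of all 3 replicates over their whole width.

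At the start of Sufu the replicates differed. The region chr19:46469521-46469943, 1654 bp upstream, had scores of 180.84, 60.21 and 101.54, at percentiles of 82.7, 26.5 and 81.6, and its middle lay 493 bp from the start of Actr1a, inside that gene. A separate region at the Sufu start itself, chr19:46471270-46471669, with its middle in exon 1, held peaks of replicates 1 and 3 (scores of 142.51 and 75.79, percentiles 76.2 and 66.9) but none of replicate 2. The other regions of all 3 replicates lay 68555 bp upstream in Fbxl15, with scores of 55, 56.08 and 88.6 at percentiles of 17.6, 18.0 and 75.9, and 93814.5 bp downstream of the start, beyond the gene, with scores of 61.72, 70.08 and 102.44 at percentiles of 33.2, 39.1 and 81.9. These last had the lowest mean percentiles of the 17, at 37.2 and 51.4. Of the regions of 2 replicates the highest mean percentile, 79.1, was at chr19:46574228-46574793, downstream and 1627.5 bp from the start of Trim8.

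Sufu lies on chromosome 19, which had the highest density of peaks of any autosome in all 3 lists. Replicate 3 had 31.6 peaks per Mb on that chromosome, against a median of 14.0 per Mb over the autosomes. In the Sufu window the density was higher still, at 61.7, 20.6 and 99.3 peaks per Mb in replicates 1, 2 and 3, which is 5.30, 3.56 and 3.15 times that of the chromosome. Chromosomes 1 and 8, which carry Gli2 and Hhip, also had more peaks of replicate 3 than the median, at 27.2 and 28.5 per Mb. The Gli2 window had 1.93 times the density of its chromosome in replicate 3 and the Hhip window 0.840 times. For regions of all 3 replicates, the ratio to the density of the chromosome was 0 at Shh and Hhip. In the 7 windows that held any such region it lay between 2.42 (Gli3) and 6.74 (Smo). A single region gave 2.44 at Boc and 2.51 at Gli1, so in windows this short the ratio rests on very few regions. The part of the differences between chromosomes in the counts was not tested.

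**Figure D3:**
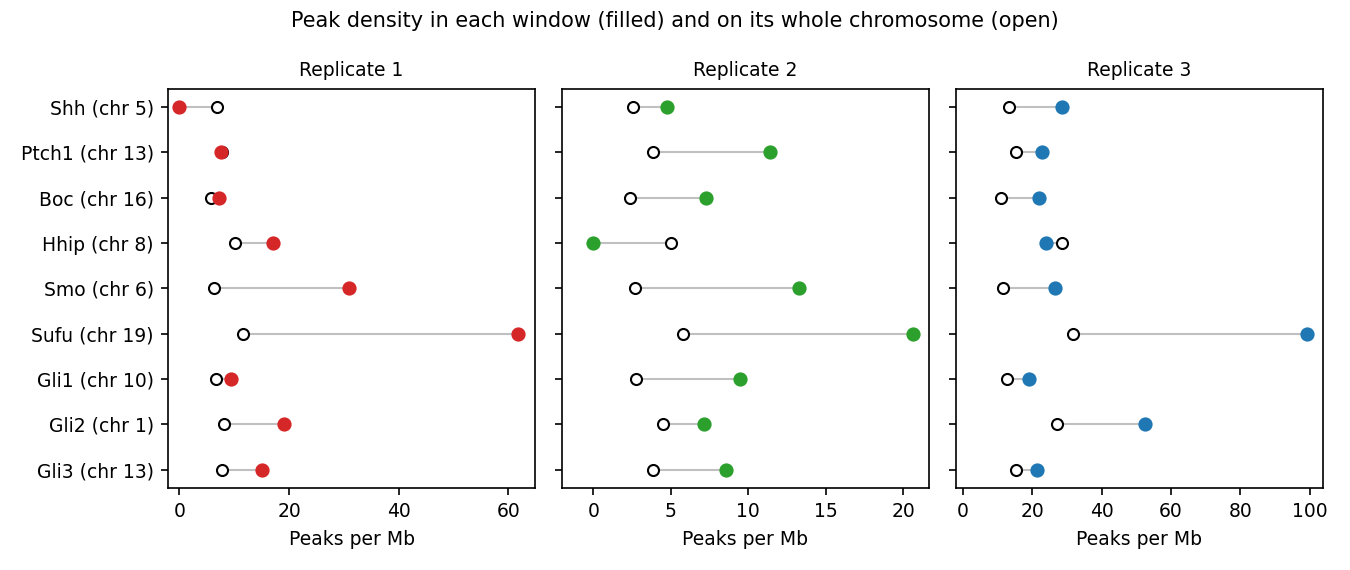
Peaks per Mb in the window of each gene (filled circles) and on its whole chromosome (open circles), with 1 panel per replicate and separate axes. The Sufu window lies highest in every panel, at 61.7, 20.6 and 99.3 peaks per Mb in replicates 1, 2 and 3, and the Hhip window lies below its chromosome in replicates 2 and 3.

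Gli1, the activator that is also a target of the pathway (chr10:126766945-126778645, minus strand), had 1 region of all 3 replicates and 0 in its body. The region, chr10:126700756-126701038, lay 77748 bp downstream of the Gli1 start and 761 bp from the start of Kif5a, which encodes a neuronal kinesin. Its scores were 88.75, 68.17 and 142.04, at percentiles of 57.6, 37.3 and 89.4, and the printed stretch holds a single AACAAAG. A stronger region of replicates 2 and 3, with scores of 128.95 and 274.46 at percentiles of 72.9 and 95.9, lay 51072 bp upstream within R3hdm2, and 87.3% of it was multi-copy. The window holds 10 protein-coding genes with Gli1 included.

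Gli2, the main activator (chr1:120730709-120950196, minus strand), carried the highest scoring region of the 9 genes. It had 3 regions of all 3 replicates, 0 of 2 replicates and 24 of 1 replicate, 19 of which came from replicate 3. No other protein-coding gene lay in its window. The region chr1:120807572-120808089 in intron 2, 142366 bp from the gene start and 71334.5 bp from the nearest annotated Gli2 start, scored 463.7, 512.54 and 892.27. These were ranks of 755, 218 and 250 and percentiles of 96.0, 97.3 and 99.4, with a mean of 97.6 ± 1.71 (SD, n = 3). The 3 replicates thus placed it near the top of their lists. The printed stretch holds 1 GACAAT on the minus strand.

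The other Gli2 regions formed a pair in intron 1, 395 bp apart, at 3539.5 and 4444.5 bp from the gene start. The nearer, chr1:120946414-120946899, scored 216.22, 118.31 and 180.82, at percentiles of 86.5, 69.2 and 92.4. The farther, chr1:120945485-120946018, scored 330.36, 189.1 and 314.96, at percentiles of 92.8, 84.5 and 96.6, which gave the next highest mean percentile of the 17, 91.3 ± 6.19 (SD, n = 3). It holds the SOX/POU word shown above, while the nearer region holds none of the words searched for. The peaks of 1 replicate at Gli2 scored between 50.47 and 123.27.

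Gli3, the main source of repressor (chr13:15555068-15821859, plus strand), had 3 regions of all 3 replicates with similar mean percentiles, between 80.7 and 83.9. The region chr13:15577723-15578252 in intron 2, 22919.5 bp from the start, scored 320.5, 115.78 and 159.74, at percentiles of 92.5, 68.3 and 91.0. The region chr13:15648298-15648705 in intron 3, 93433.5 bp from the start, scored 160.47, 120.86 and 176.57, at percentiles of 79.7, 70.4 and 92.2. The region chr13:15848238-15848930 lay 293516 bp from the start, beyond the gene body, and scored 171.77, 112.36 and 215.6, at percentiles of 81.5, 67.1 and 94.1. It was 693 bp wide and held 2 AACAAA or AACAAT words and 2 GACAAA or GACAAT words. A region of replicates 2 and 3, with scores of 89.98 and 132.31 at percentiles of 55.8 and 88.3, lay 24277 bp from the start in intron 2, close to the first.

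Ranks within the lists separated the Gli2 and Gli3 regions from most of the others. The mean percentile ranged from 80.7 to 97.6 at Gli2 and Gli3, from 63.7 to 86.4 at Ptch1 and Boc, from 53.3 to 77.0 at Smo and from 37.2 to 85.3 at Sufu. The 1 region at Gli1 had 61.4. With a score of at least 100 in each replicate, all 6 regions of Gli2 and Gli3 remained, with 1 each at Ptch1, Boc and Sufu, which made 9 regions at 5 of the 9 genes, and Smo and Gli1 had none. At that score 23.5% of all genes had a region of all 3 replicates. Over all 17, the median percentiles of 81.5, 62.0 and 91.0 in replicates 1, 2 and 3 were close to those of all regions of all 3 replicates, at 82.6, 65.1 and 92.8. Of the 17, 4 scored above the 90th percentile of list 1 (23.5%, against 32.0% in the genome), 1 of list 2 (5.88% against 15.0%) and 10 of list 3 (58.8% against 64.5%).

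**Figure D4:**
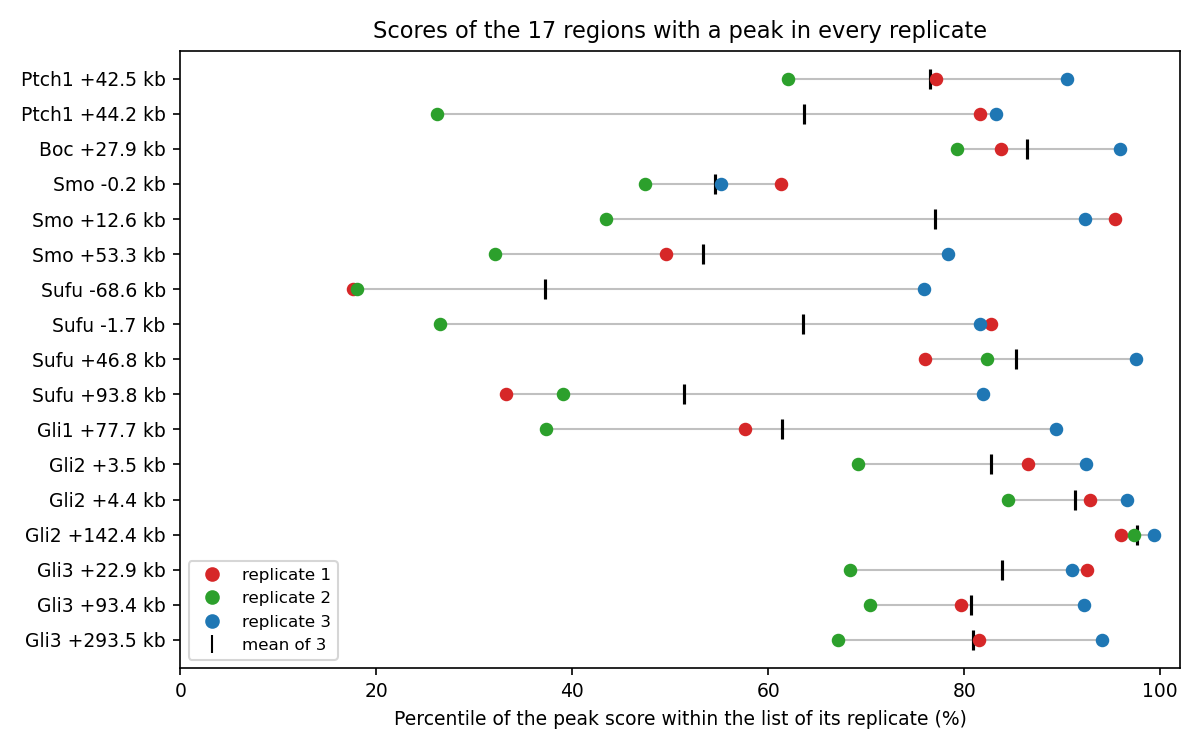
Percentile of the peak score (%) within the list of replicates 1, 2 and 3 (coloured points) and the mean of the 3 (black tick) for the 17 regions, named by gene and by distance from the gene start in kb. The points of Gli2 and Gli3 lie at 67.1 or higher, and the Gli2 region of intron 2 has all points at 96.0 or higher, while several Sufu, Smo and Ptch1 regions have low points for replicate 2.

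The share of regions with a SOX word was lower at the pathway genes than over the genome, within wide intervals. Within 200 bp around the middle, AACAAA or AACAAT was present in 5 of the 17 (29.4%, 95% Wilson interval 13.3 to 53.1%), against 47.9% of all regions of all 3 replicates. GACAAA or GACAAT was present in 17.6%, against 33.2%, and a SOX core word in 52.9%, against 72.0%. The intervals for the 17 regions, 6.19 to 41.0% and 31.0 to 73.8%, include the share of all regions. The octamer was present in 3 regions (17.6% against 8.90%) and the SOX/POU word in 2 (11.8% against 6.46%), with intervals from 6.19 to 41.0% and from 3.29 to 34.3%. The SOX words can overlap each other, so these shares are not separate counts. The word GACCACCCA, bound by Gli factors, was present in 0 of 17, which allows a share of up to 18.4%, and in 0.205% of all regions. Over the whole width of the regions, 52.9% held AACAAA or AACAAT, against 62.8%.

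**Figure D5:**
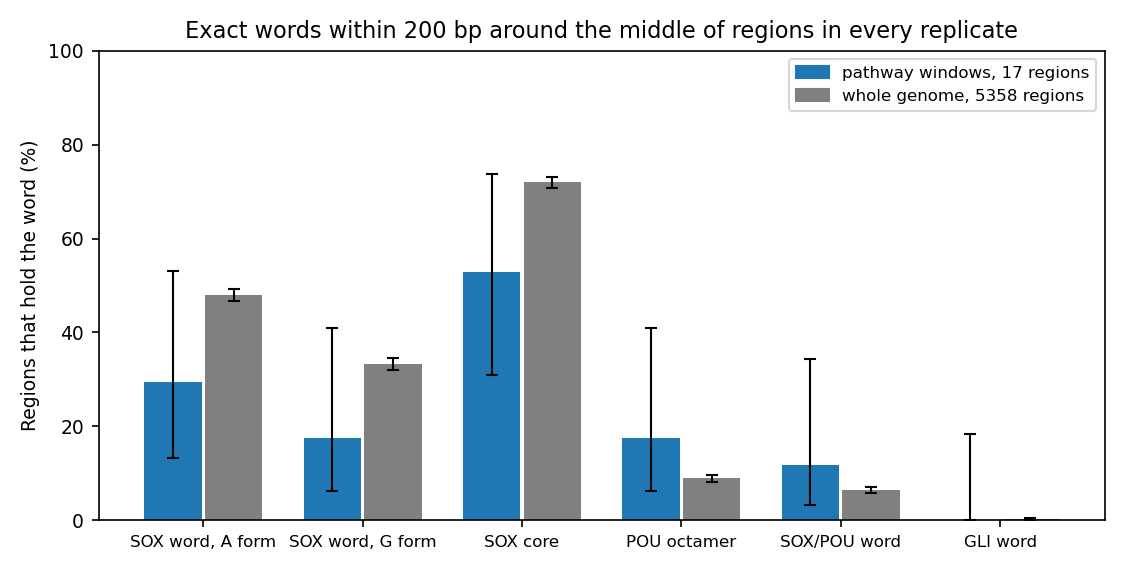
Share of regions (%) that hold each word within 200 bp around the middle, for the 17 regions in the pathway windows (blue) and all 5358 regions of all 3 replicates (grey), with 95% Wilson intervals as error bars. The A form is AACAAA or AACAAT and the G form GACAAA or GACAAT, and each interval of the 17 regions includes the grey value.

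Other genes of the pathway were counted in the same way. Of 30 further genes, 18 had a region of all 3 replicates in the window, against 42.2% of all genes, with 35 regions in all. The co-receptors Cdon, Gas1 and Lrp2 did, with 8 regions. The strongest of these regions, with a mean percentile of 99.8, was in the window of Lrp2, a large endocytic receptor that binds Shh. It lay 167490 bp from the Lrp2 start. Of 7 genes that act downstream in the ventral neural tube or in proliferation, 6 had a region, namely Foxa2, Nkx2-2, Nkx2-1, Olig2, Mycn and Ccnd1. The best region in the Nkx2-1 window had a mean percentile of 99.5 and lay 77908.5 bp from the Nkx2-1 start. Whether the start of another gene lay nearer to the Lrp2 and Nkx2-1 regions was not examined. Both genes of ligand acylation and release, Hhat and Scube2, had regions, and of the other ligands Dhh had 3 and Ihh had 0. Of the kinases and ubiquitin ligases that act on Gli proteins 4 of 7 had 1 region each, namely Prkaca, Btrc, Cul3 and Stk36, with those of Btrc and Stk36 within 2000 bp of the gene start. Of 9 genes of the cilium and of Smo trafficking, only Ift88 and Tulp3 had any. These further genes were listed with earlier results of these data known. The study itself names Olig2, Nkx2-2 and Nkx2-1 near its SOX3 or shared SOXB1 sites, so their counts here are not separate evidence.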

How the data were processed

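SOX3 ChIP-seq peaks of 3 replicates of NP cells were used. Reads were aligned to mm9 with Bowtie (version 1.0.0 in the submitters' processing notes), and the authors ran MACS per replicate with the input as control, keeping peaks with a p-value of 1e-05 or less. The deposited score is the negative log10 of that p-value multiplied by 10 and was not normalized between replicates. Read counts and depths were not given in the sources used here, and the input was not analysed here.

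Peaks overlapping by at least 1 bp were merged. Genes and starts were those of GENCODE vM1 on NCBIM37, the same assembly as mm9, and the gene start was the 5′ end of the gene. Words were counted exactly on both strands, and 50-base sequences were counted over the reference to find multi-copy stretches. No test was run, since there was 1 group. All 9 genes were described, with each region of all 3 replicates, for 2 replicates the region of highest mean percentile per gene and others where they lay at a start or beside such a region, and for 1 replicate the count and score range with the Hhip peaks of highest score or percentile. The genes and lists were chosen with earlier results of these data known, and 1 pathway gene and 1 marker were not matched in the annotation. A further pathway gene is not reported here. The alternatives were other windows, stricter or equal lists, midpoints within 300 bp, the nearest start, each replicate left out, and whole regions for words. Leaving out multi-copy regions was added after the data were seen. The merging and counting were tested on simulated data. Computing used matplotlib 3.10.9, numba 0.67.0, scipy 1.17.1 and numpy 2.4.6 under Python 3.11.15.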

Additional observations from a re-analysis of the deposited data

How the results depend on the processing

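The number of pathway genes with a region of all 3 replicates was 6 with windows of 20 or 50 kb, 9 with 500 kb, 5 with scores of at least 100, and 7 with equal numbers of peaks (the 8096 highest of each list), with midpoints within 300 bp or without mostly multi-copy regions. The number of regions was 13, 15 and 37 with 20, 50 and 500 kb, 9 with scores of at least 100, 13 with equal numbers and 12 with the pathway gene as nearest start. The share of all genes was 18.5%, 28.8% and 83.6% with 20, 50 and 500 kb, 23.5% with scores of at least 100, 33.2% with equal numbers and 37.6% without mostly multi-copy regions. Leaving out each replicate in turn and asking for a peak of both others gave 7 to 8 genes, 17 to 27 regions and 42.9 to 55.0% of all genes. Shh gained a region without replicate 1 and Hhip without replicate 2. No paired analysis was possible because there was 1 group of SOX3 samples and no test. The lists give no read counts, so a peak missing from replicate 2, the shortest list, was not detected at its unknown depth.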

Other observations

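SOX3 binding was also counted farther from the genes than 100 kb, including Shh and Hhip, which had no region of all 3 replicates nearby. With 500 kb to each side, the Shh window held 3 regions of all 3 replicates, all downstream of Shh and nearer to Cnpy1 or En2, a homeobox gene of the midbrain and hindbrain. The strongest, chr5:28536300-28536862, was 257060 bp from the Shh start and 19 bp from a start of Cnpy1, and it scored 931.18, 551.83 and 875.77 in replicates 1, 2 and 3, at percentiles of 99.0, 97.7 and 99.4. The Hhip window held 3 as well, of which the nearest was 118899 bp upstream with scores of 61.96, 71.41 and 119.2 at percentiles of 33.6, 40.8 and 86.1.

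Upstream of Gli2, 252084 bp from its start and 116545 bp from that of Inhbb, a region at chr1:121201915-121202645 scored 1126.26, 717.57 and 1165.62, at percentiles of 99.3, 98.8 and 99.6, above those of the 3 regions within the Gli2 gene. Upstream of Boc, at 120758 bp, a region scored 523.75, 191.08 and 347.84, at percentiles of 96.7, 84.7 and 97.0 in replicates 1, 2 and 3. Each was higher than the value of the region in Boc intron 1 in the same replicate. The nearest gene start was that of BC027231, 44646 bp away. At 500 kb, 83.6% of all genes had a region of all 3 replicates.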
